A study of Triticum aestivum with 12 samples.

Results

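Immature grain of the bread wheat (Triticum aestivum) mutant HPm512 was compared at 30 days with grain of 20 days after anthesis, when the flower opens. The members are every library that the labels give to the mutant line, 3 at 30 days and 3 at 20 days, which makes 6 of the 12 samples of the series. The labels describe this line by a high antioxidant activity, and they name neither the mutated gene nor how the line was made. The other 6 samples are immature grain of the wild-type cultivar Zhoumai22, 3 libraries at 30 days and 3 at 20 days, and they serve here to test whether a change of the mutant differs from that of the wild type over the same days. The labels list no treatment for any group. RNA came from the grain by Trizol extraction and 1 ug of total RNA went into an Illumina TruSeq RNA library. Nothing in the labels says that replicates came from separate plants, so the spread behind each p-value is that between these samples and may be technical.

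A wheat grain first builds its tissues by cell division and then fills: the starchy endosperm lays down starch and the storage proteins of flour, gliadins and glutenins, while the outer pericarp is still green. Later the grain matures and dries. Embryo and aleurone then accumulate late embryogenesis abundant proteins such as Em, which are known for protecting cells against water loss under the control of abscisic acid, and the cell cycle comes to rest. In RNA of bulk grain, fewer cells of a type and less RNA per cell cannot be told apart, so each value below is a level in the grain as a whole.

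The deposited table held 25269 genes: 12416 gene models, all on chromosomes 1A (4344), 1B (4714) and 1D (3358), and 12853 non-coding RNA genes from the whole genome. Chromosomes other than these were not analysed here for coding genes. Library totals ran between 65.0 M and 70.5 M reads in mutant grain at 30 days and between 59.3 M and 70.4 M at 20 days, with 18.5% to 20.4% and 16.4% to 20.3% of them on the table. Reads were found for 8341 to 8668 genes per library at 30 days and 8874 to 9213 at 20 days. The first principal component of the 6 libraries, with 86.1% of the variance, separated the days. On the second, with 5.40%, mutant replicate 3 at 20 days lay at -19.2, away from 8.69 and 10.7 for replicates 1 and 2 of its group; it also had the lowest Em, histone and agglutinin levels and the highest storage protein level of its group.

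Of the 5723 genes that reached 1 FPKM (fragments per kilobase of gene per M reads of the library) in at least 3 libraries, 1711 were called higher at 30 days (29.9%) and 1597 lower (27.9%) by edgeR's quasi-likelihood test at a Benjamini-Hochberg adjusted p under 0.05, 57.8% in all. Changes of at least 2-fold were called for 832 genes upwards and 880 downwards, and of at least 16-fold for 77 upwards and 160 downwards. A log2 fold change below is scaled by TMM, which assumes that most genes did not change, whereas FPKM is scaled by library totals alone. The mean TMM factor was 0.806 at 30 days and 1.17 at 20 days, so the scalings differ: over all tested genes the median log2 fold change was 0.08 with TMM, -0.46 with library totals alone and -0.65 with equal FPKM totals. The TMM median was 0.0052, 0.021 and 0.015 without replicate 1, 2 or 3 at 30 days. On library totals alone 772 genes were called higher (13.5%) and 2708 lower (47.3%); these 772 and all 1597 TMM falls were shared by both scalings. The 3 libraries of one day lay wholly above the 3 of the other in FPKM for 888 genes higher at 30 days (15.5%) and 2868 lower (50.1%). Small rises thus depend on the scaling. A gene could also pass the filter through the libraries of a single day, and such a gene could hardly be called the other way. "Rose" and "fell" are used of genes called with TMM. Changes are differences on the log2 scale, 30 minus 20 days, with SE and n = 3 libraries a day. The SE is the absolute change divided by the square root of the test's F statistic. It rests on the spread in the fit of all 12 libraries.

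**Figure D1:**
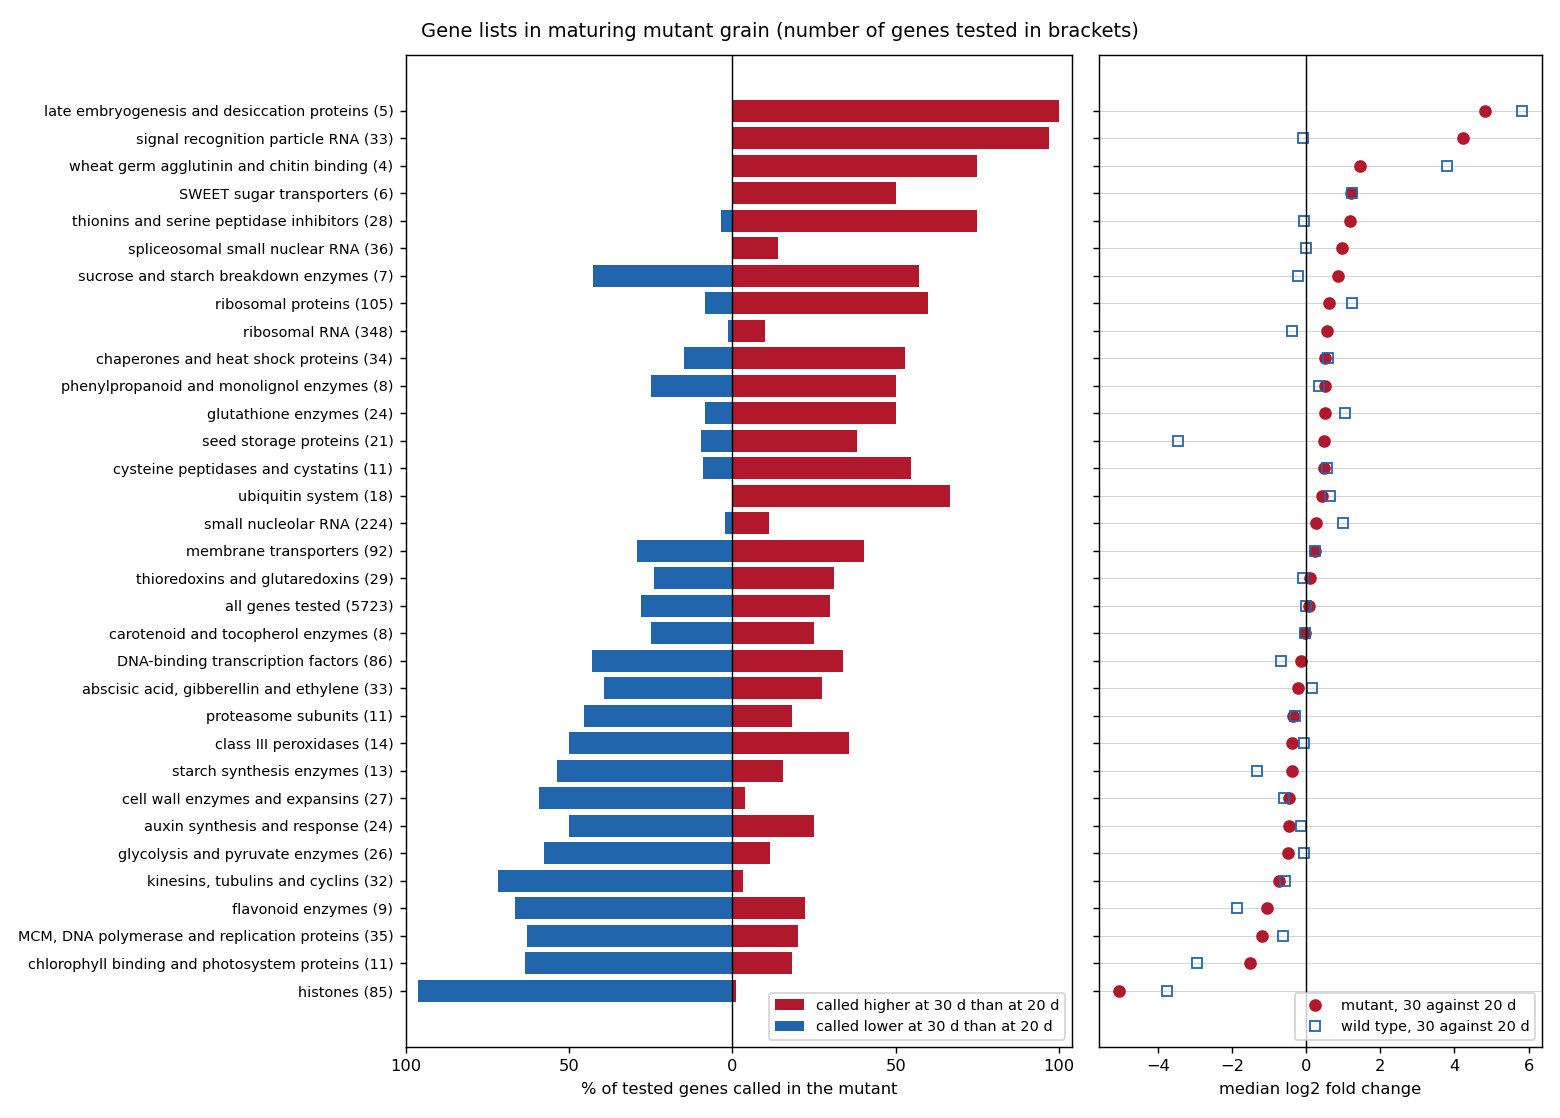
For each gene list, the left panel shows the percentage of its tested genes called higher (red) or lower (blue) at 30 than at 20 days in mutant grain, and the right panel its median log2 fold change in the mutant (filled circles) and in wild type (open squares). Em proteins and signal recognition particle RNA stand at the top and histones at the bottom; on library totals alone the medians of storage proteins, chaperones, cysteine peptidases, ubiquitin, thioredoxins, glutathione, monolignol enzymes, transporters and small nucleolar RNA turn negative.

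The Em proteins, late embryogenesis abundant proteins of the drying embryo and aleurone, had the highest median change of the coding gene lists. All 5 genes described as Em had reads and passed the filter, and all 5 rose (median log2 fold change 4.82), under library totals alone as well (median 4.24). Their summed reads were 585, 1119 and 635 RPM (reads per M of the library total) at 30 days, against 35.8, 14.3 and 4.30 RPM at 20 days. TraesCS1B02G237500 (chr1B:424531353-424532121; the build is not given in the sources used here) had 562, 1076 and 632 FPKM at 30 days, against 14.1, 6.96 and 1.70 FPKM at 20 days (log2 fold change 7.197 ± 0.63, adjusted p = 7.1e-07). TraesCS1D02G226000 (chr1D:314426343-314426721) had 204, 400.5 and 176 FPKM at 30 days, against 5.09, 1.24 and 0 FPKM at 20 days (log2 fold change 7.44 ± 0.81, adjusted p = 4.7e-06). On 1A, TraesCS1A02G224600 had 538, 981 and 575 FPKM at 30 days, against 85.7, 28.8 and 10.3 FPKM at 20 days (log2 fold change 4.63 ± 0.58, adjusted p = 1.6e-05). For each of these the days did not overlap: replicate 2 was highest at 30 days and replicate 3 lowest at 20 days. At 30 days the remaining members were an order of magnitude or more lower in FPKM: TraesCS1A02G224100 had 6.45, 19.9 and 8.21 FPKM at 30 days, against 0.320, 1.17 and 0.275 FPKM at 20 days (log2 fold change 4.82 ± 0.81), and TraesCS1A02G224400, described as Em protein CS41, had 3.67, 17.1 and 4.81 FPKM at 30 days, against 1.05, 0.776 and 0.131 FPKM at 20 days (log2 fold change 4.23 ± 0.79). All 5 rose in wild type as well (median 5.83). By edgeR 0 of 5 differed in change between the lines, also at an unadjusted p under 0.05, and likewise 0 by DESeq2 and by limma, but 3 with equal FPKM totals.

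Undescribed gene models beside the Em genes rose with them. On 1A, TraesCS1A02G224500 had 831, 1352 and 939.7 FPKM at 30 days, against 52.8, 17.7 and 2.93 FPKM at 20 days (log2 fold change 5.97 ± 0.74) and TraesCS1A02G224200 534, 888 and 579 FPKM at 30 days, against 29.5, 11.7 and 1.85 FPKM at 20 days (log2 fold change 6.10 ± 0.73). Both stand between the first and the last Em gene of 1A, and their levels were those of the abundant Em genes rather than of the low ones. On 1B, the models either side of the Em gene rose by 7.49 (TraesCS1B02G237400) and 6.21 (TraesCS1B02G237600). On 1D, TraesCS1D02G225700, TraesCS1D02G225800 and TraesCS1D02G225900, which precede the Em gene, rose by 3.45, 7.64 and 7.70; the last had 458, 759.8 and 515 FPKM at 30 days, against 8.93, 2.42 and 0.740 FPKM at 20 days. Beyond these blocks the tested neighbours changed by between -0.46 and 1.06, and 4 models, 1 of them inside the 1A block, did not pass the filter. Only a few models on either side were looked at. On 1D every preceding model looked at rose, so the upstream edge of that block was not seen. The table gives these neighbours no description, so no name or function is attached to them. These blocks were looked at because of the Em genes, and neighbours may share reads, which was not tested.

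**Figure D2:**
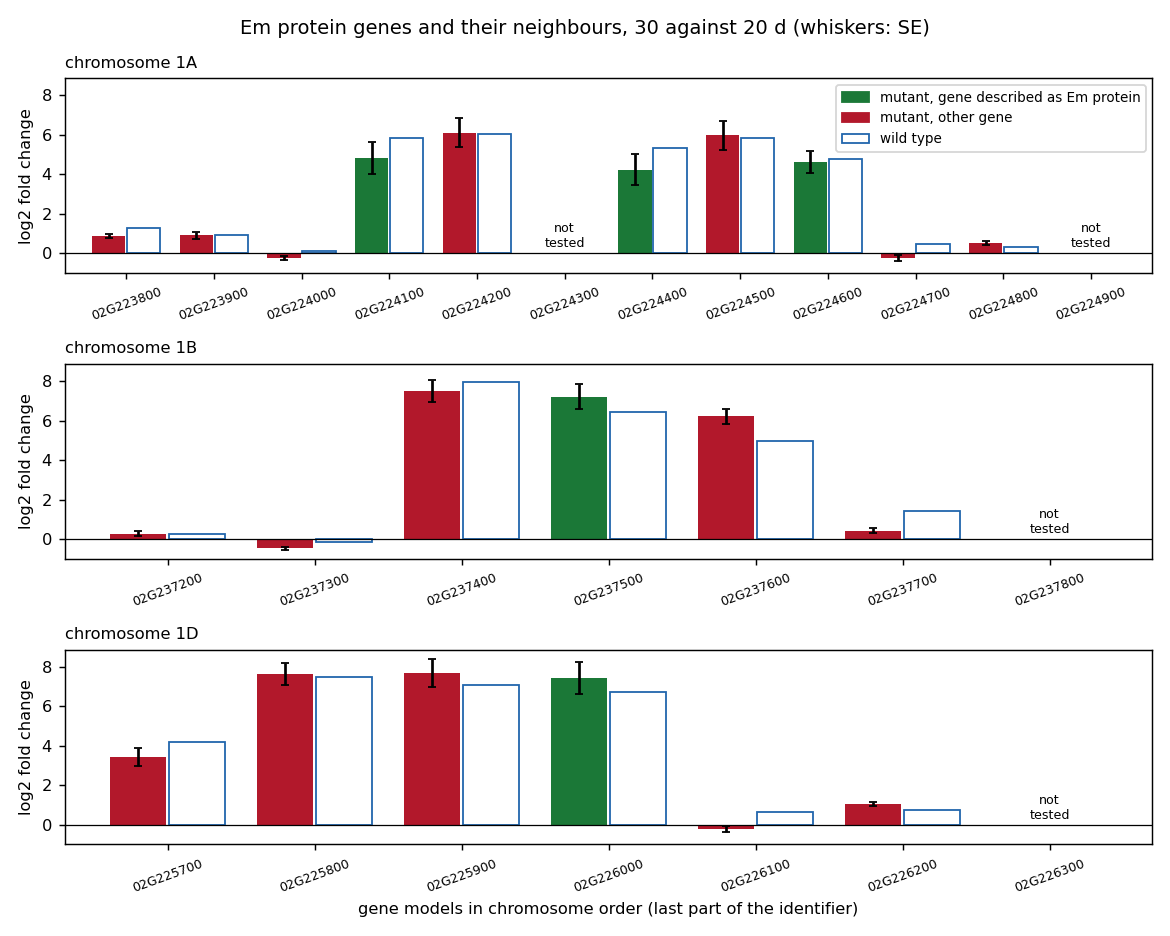
Log2 fold change at 30 against 20 days for Em genes (green) and neighbouring gene models (red) in mutant grain, with SE, and in wild type (open bars), in chromosome order on 1A, 1B and 1D. Blocks of adjacent models reach 3.45 to 7.70 in the mutant, while the tested models outside the blocks lie between -0.46 and 1.06. No model before the 1D block is shown.

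Chaperones, which fold and protect proteins, rose more often than they fell under TMM. Of 42 members, 37 had reads in mutant grain and 34 passed the filter. Of these, 18 rose and 5 fell (median 0.50), while library totals alone gave 12 higher and 15 lower (median -0.05). HSP70 TraesCS1D02G284000, a general heat shock chaperone, had 528, 328 and 489 FPKM at 30 days, against 191, 217 and 161 FPKM at 20 days (log2 fold change 1.78 ± 0.18, adjusted p = 2.9e-06). TraesCS1A02G295600, annotated with unfolded protein binding, had 54.3, 47.3 and 52.1 FPKM at 30 days, against 13.8, 13.4 and 10.9 FPKM at 20 days (log2 fold change 2.55 ± 0.10, adjusted p = 2.4e-09). The folding-annotated pair TraesCS1B02G423600 and TraesCS1A02G395300 rose by 1.94 ± 0.12 and 1.86 ± 0.12. In these 4 the 30-day libraries lay above all 20-day libraries, and their direction held on library totals. Peptidyl-prolyl isomerase TraesCS1A02G007500, which speeds a slow step of folding, was the largest fall, with 8.59, 10.1 and 7.97 FPKM at 30 days, against 21.3, 20.3 and 20.3 FPKM at 20 days (log2 fold change -0.68 ± 0.11). Heat shock transcription factor A6e TraesCS1A02G375600 had 12.1, 7.73 and 9.32 FPKM at 30 days, against 12.5, 13.7 and 12.1 FPKM at 20 days and was not called (log2 fold change 0.14 ± 0.15, adjusted p = 0.44), but was called lower on library totals (-0.40).

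Storage protein RNA was abundant on both days. Genes annotated with nutrient reservoir activity took 2.88, 3.57 and 3.79% of the library at 30 days and 2.99, 2.16 and 4.31% at 20 days, means of 3.41% ± 0.474 and 3.15% ± 1.08 (SD, n = 3 each). The ranges overlapped, and a 2-sided exact permutation test gave p = 0.8, where 0.1 is the smallest value that 3 against 3 allows, so the test could not reach 0.05 and does not show that the share was stable. The difference ran from -0.24 to 0.84 percentage points as single libraries were left out, the negative value without replicate 2 at 20 days. In wild type the same genes averaged 0.548% at 30 days and 4.95% at 20 days.

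Of 46 seed storage genes, 26 had reads in mutant grain and 21 passed the filter. Of these, 8 rose, 2 fell and 11 were not called (median 0.48). The 21 include Storage protein activator TraesCS1D02G332200, a transcription factor and not a storage protein, which is among the 2 falls. Library totals alone gave 3 higher and 5 lower, with a median of -0.03. The TMM median was 0.23 without replicate 2 and 0.75 without replicate 3 at 20 days. Leaving out replicate 3 at 20 days raised the rises to 14, and leaving out replicate 1 or 2 at 20 days, or replicate 2 or 3 at 30 days, lowered them to 5. Gamma-gliadin 2 TraesCS1D02G001200, a monomeric gluten protein and the highest in FPKM of the analysed coding genes of 1A, 1B and 1D in mutant grain, had 9659, 12153 and 12136 FPKM at 30 days, against 8561, 6096 and 10919.8 FPKM at 20 days (log2 fold change 0.93 ± 0.25, adjusted p = 0.0062; 0.41 and not called on library totals alone, adjusted p = 0.1). Its days overlapped, since replicate 3 at 20 days exceeded replicate 1 at 30 days, and with the 6 mutant libraries alone it was not called (adjusted p = 0.093). Gamma-gliadin 11 TraesCS1D02G001100 had 4639, 5317 and 5814 FPKM at 30 days, against 3061, 1888 and 3819 FPKM at 20 days (log2 fold change 1.36 ± 0.25, adjusted p = 4.3e-04), with no overlap. Gamma-gliadin B TraesCS1B02G011000, at a far lower level, rose most, with 3.69, 6.33 and 6.73 FPKM at 30 days, against 2.78, 1.11 and 2.39 FPKM at 20 days (log2 fold change 1.94 ± 0.37, adjusted p = 5.4e-04). Gamma-gliadin 12 TraesCS1D02G001000 rose by 1.09 ± 0.25 with overlapping days.

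Among the genes not called were abundant gliadins. Gamma gliadin-A3 TraesCS1A02G007405 had 1876, 2547 and 3206 FPKM at 30 days, against 3156, 1969.9 and 4473 FPKM at 20 days (log2 fold change 0.18, but -0.33 on library totals alone), and Gliadin/avenin-like seed protein TraesCS1D02G000700 4662, 5006 and 4617 FPKM at 30 days, against 4367, 3476 and 6759 FPKM at 20 days (0.48, and -0.03 on library totals). Globulin 1, a storage globulin of embryo and aleurone, has a pair of tested genes. TraesCS1B02G330000 had 626, 959.5 and 733 FPKM at 30 days, against 556, 507 and 801 FPKM at 20 days (log2 fold change 0.84 ± 0.21, adjusted p = 0.0043; 0.32 and not called on library totals alone, adjusted p = 0.15), and TraesCS1D02G317300 had 748, 1050.2 and 810.1 FPKM at 30 days, against 805, 759.5 and 1071 FPKM at 20 days (0.51, adjusted p = 0.031, but -0.01 on library totals). Both overlapped between days. Storage protein activator TraesCS1D02G332200, a bZIP transcription factor that binds prolamin promoters, went the other way, with 1.58, 1.52 and 1.37 FPKM at 30 days, against 3.24, 5.61 and 8.70 FPKM at 20 days (log2 fold change -1.45 ± 0.32, adjusted p = 0.0017) and no overlap. Gliadin copies are near-identical and the way shared reads were assigned is not given in the sources used here, so the split between single gliadin genes is uncertain.

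Among the analysed coding genes of 1A, 1B and 1D, the 5 highest in FPKM in mutant grain were gamma-gliadin 2 and 4 others. TraesCS1D02G015100, TraesCS1D02G000200 and TraesCS1D02G000300 are listed as non-translating coding sequences without annotation; they rose by 1.17 ± 0.29, 1.09 ± 0.27 and 0.99 ± 0.26, the last being 0.48 and not called on library totals alone, adjusted p = 0.076. The first had 7972, 9046 and 10632 FPKM at 30 days, against 6162, 3425 and 7955 FPKM at 20 days. TraesCS1A02G398200, annotated with toxin activity and defence, had 6535, 5989 and 5515 FPKM at 30 days, against 6069, 4947 and 7346 FPKM at 20 days (log2 fold change 0.49 ± 0.19, adjusted p = 0.042), but -0.03 on library totals and -0.18 with equal FPKM totals, and this call was lost on leaving out any 1 mutant library except replicate 3 at 20 days.

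Serine peptidase inhibitors and thionins, small defence proteins of the grain, rose broadly. Of 103 members, 39 had reads in mutant grain and 28 passed the filter. Of these, 21 rose and 1 fell (median 1.18), and library totals alone gave 11 higher and 1 lower (median 0.62). The list includes the Wali proteins, first known from aluminium-treated wheat roots and related to Bowman-Birk trypsin inhibitors. TraesCS1A02G265800, annotated as a serine endopeptidase inhibitor, had 322, 338 and 246 FPKM at 30 days, against 23.2, 19.9 and 3.15 FPKM at 20 days (log2 fold change 4.86 ± 0.52, adjusted p = 3.8e-06). TraesCS1D02G266000, with the same annotation and a higher level, had 413, 407 and 345 FPKM at 30 days, against 180.1, 132.9 and 47.2 FPKM at 20 days (log2 fold change 2.26 ± 0.31, adjusted p = 4.3e-05). TraesCS1B02G276800 had 199.9, 189.8 and 159 FPKM at 30 days, against 62.9, 64.8 and 13.5 FPKM at 20 days (log2 fold change 2.53 ± 0.40). The days did not overlap in these 3, and replicate 3 at 20 days was the lowest library each time. On 1A, a run of adjacent models rose together: TraesCS1A02G265600 by 1.85 ± 0.17, TraesCS1A02G265700 by 2.96 ± 0.38 and TraesCS1A02G265900 by 2.11 ± 0.28.

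Wali6 TraesCS1B02G276900 had 113, 109 and 98.5 FPKM at 30 days, against 63.4, 61.7 and 20.96 FPKM at 20 days (log2 fold change 1.70 ± 0.26, adjusted p = 9.6e-05). Wali5 TraesCS1D02G265800 rose less (log2 fold change 0.82 ± 0.12; 0.28 and not called on library totals alone, adjusted p = 0.1) and overlapped between days. Wali3 TraesCS1D02G265900 was the single fall of the list, with 58.3, 57.6 and 48.4 FPKM at 30 days, against 127, 167 and 139 FPKM at 20 days (log2 fold change -0.85 ± 0.11, adjusted p = 3.0e-05), although it stands next to Wali5 on 1D. Type V Thionin TraesCS1B02G426000 had 250.1, 349 and 219.6 FPKM at 30 days, against 157, 115.01 and 151 FPKM at 20 days (log2 fold change 1.48 ± 0.23, adjusted p = 1.2e-04), with no overlap. Its neighbour Alpha purothionin TraesCS1B02G426100, a membrane-active peptide of the starchy endosperm at a far higher level, had 5097, 4904 and 4334 FPKM at 30 days, against 5071, 4615 and 6656 FPKM at 20 days and was not called (log2 fold change 0.33 ± 0.19, adjusted p = 0.16; -0.19 on library totals).

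Genes of the wheat germ agglutinin list, named for the chitin-binding lectin of the embryo, were uneven over the 20-day libraries. Of 10 members, 8 had reads in mutant grain and 4 passed the filter. Of these, 3 rose and 1 was not called (median 1.45), against 2 higher and 1 lower on library totals alone. Agglutinin isolectin 1 TraesCS1A02G326800 had 55.6, 44.4 and 59.7 FPKM at 30 days, against 29.7, 69.6 and 14.01 FPKM at 20 days (log2 fold change 1.08 ± 0.35, adjusted p = 0.017), so replicate 2 at 20 days exceeded every 30-day library. Its call was lost on library totals alone (0.49, adjusted p = 0.28), with equal FPKM totals (0.22, adjusted p = 0.66) and with the 6 mutant libraries alone (adjusted p = 0.061). TraesCS1D02G328900 and TraesCS1B02G340200, both annotated with chitin binding and chitinase activity, had 182, 130.5 and 175 FPKM at 30 days, against 60.7, 121 and 26.05 FPKM at 20 days (log2 fold change 1.81 ± 0.39) and 109, 81.1 and 106 FPKM at 30 days, against 22.5, 48.6 and 9.79 FPKM at 20 days (log2 fold change 2.46 ± 0.36). In these chitin-binding genes the days did not overlap. All 3 rose less than in wild type, with differences of the changes of -2.35, -2.34 and -1.68. Em, agglutinin and Globulin 1 are the embryo and aleurone markers present in these data; no gene model is described as an oleosin, a lipid transfer protein or a peroxiredoxin, so those markers were not used here.

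**Figure D3:**
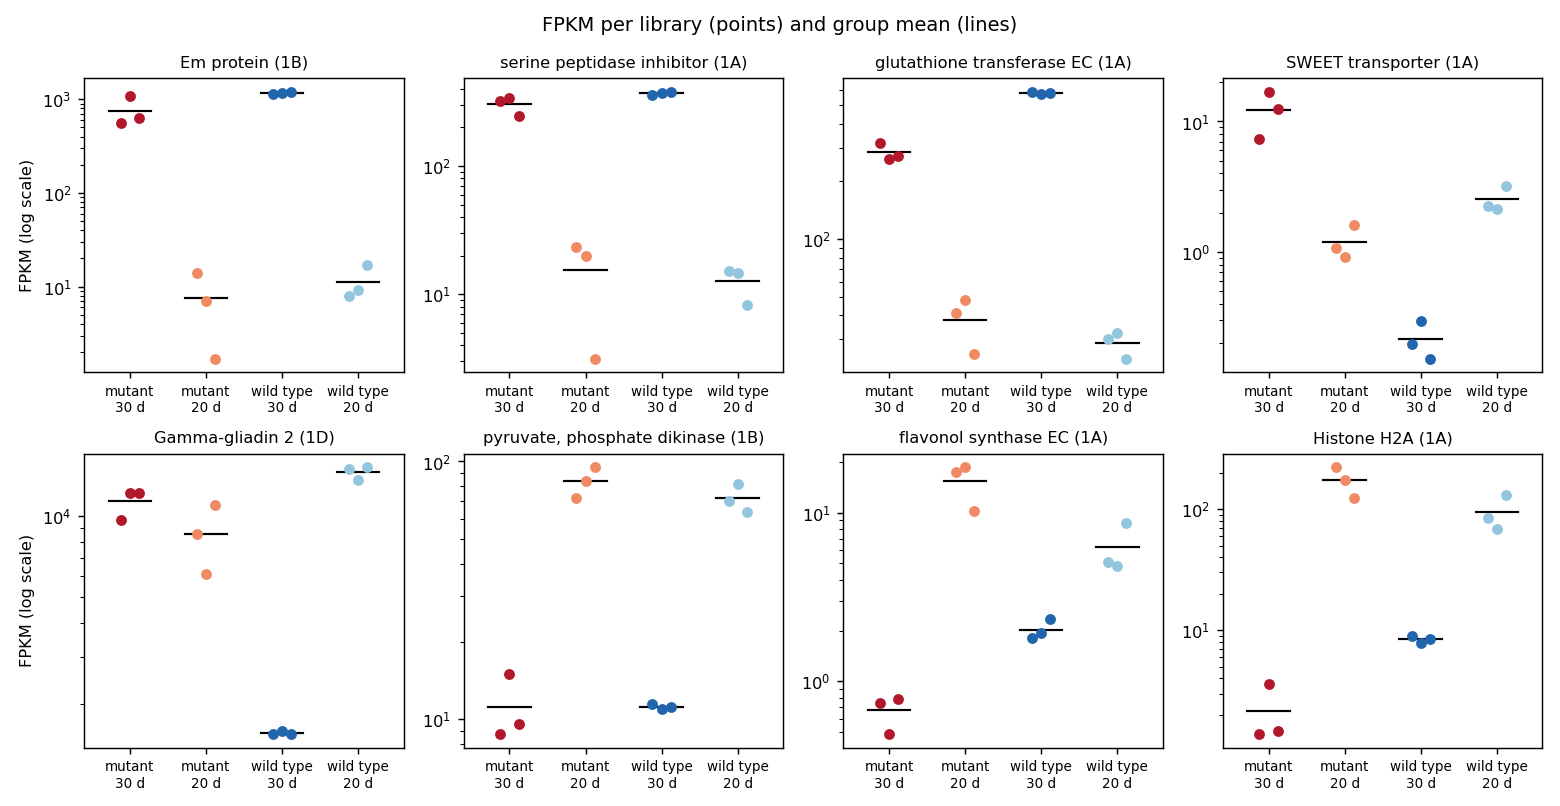
FPKM of 8 genes in each library on log axes, mutant at 30 and 20 days and wild type at 30 and 20 days; points are libraries and lines group means. Em, the serine peptidase inhibitor, glutathione transferase and the SWEET transporter are higher in all 3 mutant libraries at 30 days, the dikinase, flavonol synthase and histone H2A are lower in all 3, and gamma-gliadin 2 overlaps between days in the mutant.

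Enzymes that make starch mostly fell. Of 16 members, 16 had reads in mutant grain and 13 passed the filter. Of these, 2 rose and 7 fell (median -0.38), and library totals alone gave 0 higher and 9 lower. Without replicate 3 at 20 days the median was -0.22. Glucose-1-phosphate adenylyltransferase makes the ADP-glucose from which starch is built. Its gene on 1B, TraesCS1B02G449700, had 45.5, 46.7 and 41.5 FPKM at 30 days, against 109, 100.8 and 144 FPKM at 20 days (log2 fold change -0.88 ± 0.28, adjusted p = 0.015), while the 1A gene TraesCS1A02G419600 had 77.9, 91.4 and 76.8 FPKM at 30 days, against 128, 104.3 and 147 FPKM at 20 days and was not called (log2 fold change -0.10 ± 0.16, adjusted p = 0.62). The FPKM of both was lower in all 30-day libraries. TraesCS1D02G100100 and TraesCS1A02G091500, annotated as starch synthases, fell by 1.32 and 0.69. The rises were starch synthases TraesCS1A02G137200 (log2 fold change 0.52 ± 0.15) and TraesCS1B02G155700 (log2 fold change 0.46 ± 0.11), which turn to -0.03 and -0.09 on library totals.

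Pyruvate, phosphate dikinase, which interconverts pyruvate and phosphoenolpyruvate and is abundant in filling cereal endosperm, fell in all 4 of its tested genes. TraesCS1A02G253400, the most abundant at 20 days, had 30.9, 40.7 and 29.7 FPKM at 30 days, against 140.4, 160.01 and 157 FPKM at 20 days (log2 fold change -1.64 ± 0.14, adjusted p = 5.2e-07). TraesCS1B02G264900 had 8.72, 15.01 and 9.57 FPKM at 30 days, against 71.9, 84.3 and 94.8 FPKM at 20 days (log2 fold change -2.38 ± 0.21, adjusted p = 6.5e-07). TraesCS1D02G252900 and TraesCS1A02G253200 fell by 2.26 and 2.12. The libraries of the days stood well apart in each gene. The 3 pyruvate kinases, which carry out the last step of glycolysis, fell on all 3 chromosomes: TraesCS1B02G226500 by 1.78, TraesCS1D02G215900 by 1.68 and TraesCS1A02G213000 by 1.26, and the test of the difference called each lower than in wild type (-1.41, -1.96 and -0.95). The whole glycolysis and pyruvate list had 33 members, 29 with reads and 26 past the filter, with 3 rises and 15 falls (median -0.48), and 1 higher and 22 lower on library totals; its pattern also caught a pair of dihydroneopterin aldolases and an aldolase of the shikimate pathway. Its summed reads were 492, 594 and 477 RPM at 30 days, against 1813, 2031 and 2158 RPM at 20 days. 6-phosphofructokinase TraesCS1A02G344000, which commits sugar to glycolysis, was the largest rise, with 15.8, 14.8 and 14.97 FPKM at 30 days, against 13.98, 11.7 and 9.01 FPKM at 20 days (log2 fold change 0.94 ± 0.12, adjusted p = 1.8e-05).

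Sugar transporters of the SWEET family, which let sugars pass across membranes in either direction, were few. Of 11 members, 8 had reads in mutant grain and 6 passed the filter. Of these, 3 rose and 3 were not called (median 1.21), against 2 higher and 0 lower on library totals alone. Without replicate 1 at 20 days or replicate 2 at 30 days 2 rises were left, and without replicate 3 at 20 days 1 fall was called. TraesCS1A02G050400 had 7.31, 16.9 and 12.4 FPKM at 30 days, against 1.08, 0.911 and 1.62 FPKM at 20 days (log2 fold change 3.87 ± 0.36, adjusted p = 1.1e-06), with no overlap. TraesCS1D02G265400 and TraesCS1D02G052700 rose by 2.55 ± 0.33 and 1.55 ± 0.53 at lower levels, the second being 1.002 and not called on library totals alone, adjusted p = 0.13. TraesCS1B02G276000 had 1.97, 2.68 and 1.80 FPKM at 30 days, against 1.72, 2.78 and 0.776 FPKM at 20 days and missed the threshold (log2 fold change 0.86 ± 0.36, adjusted p = 0.054). In the sucrose and starch breakdown list, 7 of 28 members passed the filter, with 4 rises and 3 falls (median 0.86), against 3 higher and 3 lower on library totals. Beta-amylases, which release maltose from starch, went different ways: TraesCS1D02G218000 had 1.86, 1.93 and 2.12 FPKM at 30 days, against 0.848, 1.18 and 0.883 FPKM at 20 days (log2 fold change 1.57 ± 0.21) and TraesCS1A02G215500 rose by 1.55 ± 0.23, while TraesCS1A02G147400, annotated with the beta-amylase EC number, had 0.478, 0.789 and 0.298 FPKM at 30 days, against 6.95, 6.10 and 5.87 FPKM at 20 days (log2 fold change -3.05 ± 0.30).

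Histones, which package DNA and are made mostly while it replicates, fell almost as a whole. Of 92 members, 91 had reads in mutant grain and 85 passed the filter. Of these, 82 fell and 1 rose (median -5.06), and 83 were lower on library totals alone. Their summed reads were 143, 191 and 147 RPM at 30 days, against 1885, 1610.03 and 1265 RPM at 20 days. Histone H2A TraesCS1A02G038200, the most abundant histone at 20 days, had 1.38, 3.61 and 1.48 FPKM at 30 days, against 220.1, 173 and 124 FPKM at 20 days (log2 fold change -5.77 ± 0.38, adjusted p = 6.0e-08). Histone H3.2 TraesCS1D02G274300 had 0.403, 0.696 and 0.172 FPKM at 30 days, against 73.5, 58.8 and 46.9 FPKM at 20 days (log2 fold change -6.55 ± 0.45, adjusted p = 8.6e-08). Histone H4 variant TH011 TraesCS1D02G081600 was at 0 in all 3 libraries at 30 days, against 23.01, 16.04 and 11.3 FPKM at 20 days, at least 117-fold lower against a floor of 3 counts per library. Histone H2B TraesCS1A02G229100 had 0.470, 0.215 and 0.311 FPKM at 30 days, against 23.1, 16.3 and 15.5 FPKM at 20 days (log2 fold change -5.16 ± 0.32). Histone H3 TraesCS1A02G361900 kept 2 reads over the 30-day libraries, against 1094 over the 20-day libraries, a ratio of 555.8 at 20 over 30 days per library total (95% exact interval 153 to 4595, counting error only).

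The tested histones not called lower under TMM were 3 H2A genes, TraesCS1B02G296300, TraesCS1A02G286900 and TraesCS1D02G285800. The first had 65.7, 91.2 and 74.2 FPKM at 30 days, against 97.5, 102 and 68.7 FPKM at 20 days and passed the threshold as a rise (log2 fold change 0.34 ± 0.14, adjusted p = 0.049), but turned to -0.22 on library totals. That rise was lost without replicate 2 or 3 of either day. The other pair had log2 fold changes of 0.20 and 0.04, but -0.35 and -0.51 on library totals, where the second was called lower. At 30 days these 3 genes had the highest histone levels, with mean FPKM of 77.0, 44.7 and 17.4, followed by TraesCS1A02G201300 with 6.06. With near-identical copies, the assignment of reads to single histone genes is uncertain. A further H2A, TraesCS1B02G048900, was at 0 in every 30-day library and in replicate 3 at 20 days, at least 51.4-fold lower by the same floor.

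Replication and division genes fell with the histones, though less evenly. Of 57 MCM, polymerase and replication genes, 55 had reads and 35 passed; 22 fell and 7 rose (median -1.19), against 3 higher and 25 lower on library totals. The rises were 3 without replicate 1 or replicate 3 at 30 days. Genes described as MCM or DNA helicase, which unwind DNA at forks, summed to 24.3, 24.4 and 31.4 RPM at 30 days, against 344, 268 and 237 at 20 days. DNA helicase TraesCS1B02G274600 had 0.435, 0.483 and 0.428 FPKM at 30 days, against 12.96, 10.1 and 8.47 FPKM at 20 days (log2 fold change -3.997 ± 0.22, adjusted p = 1.5e-08). Among the rises, TraesCS1B02G341000, annotated with single-stranded DNA binding, had 5.21, 5.59 and 4.34 FPKM at 30 days, against 3.36, 3.11 and 2.55 FPKM at 20 days (log2 fold change 1.29 ± 0.15), and the Replication protein A subunit TraesCS1A02G085000, which coats single strands in replication and repair, rose by 1.25 ± 0.12. A GINS subunit, TraesCS1B02G411000, part of the replication helicase, had 2.25, 3.17 and 1.55 FPKM at 30 days, against 0, 0 and 0.221 FPKM at 20 days (log2 fold change 5.51 ± 1.14, adjusted p = 0.0025) and no reads in wild type. It passed the filter through the 30-day mutant libraries alone and could hardly be called lower, so its call adds no support.

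Of 35 kinesins, tubulins and cyclins, 32 passed the filter. Of these, 23 fell and 1 rose (median -0.74), against 0 higher and 27 lower on library totals. Tubulin beta TraesCS1A02G258800, a building block of the spindle and other microtubules, had 1.41, 2.15 and 1.55 FPKM at 30 days, against 22.8, 24.0 and 17.3 FPKM at 20 days (log2 fold change -3.09 ± 0.17, adjusted p = 1.3e-08). Cell wall enzymes and expansins had 27 of 65 members tested, with 16 falls (median -0.45), and 23 on library totals. Expansin EXPB2 TraesCS1A02G212600, which loosens walls in growing cells, had 0.903, 1.66 and 0.676 FPKM at 30 days, against 14.7, 14.03 and 11.3 FPKM at 20 days (log2 fold change -3.07 ± 0.30, adjusted p = 1.9e-06). In both genes every 30-day library was below every 20-day library. R1R2R3-MYB TraesCS1A02G129300, of a family that regulates cell cycle genes, had 0.0173, 0.0336 and 0.0733 FPKM at 30 days, against 2.50, 2.29 and 1.57 FPKM at 20 days (log2 fold change -5.04 ± 0.45).

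**Figure D4:**
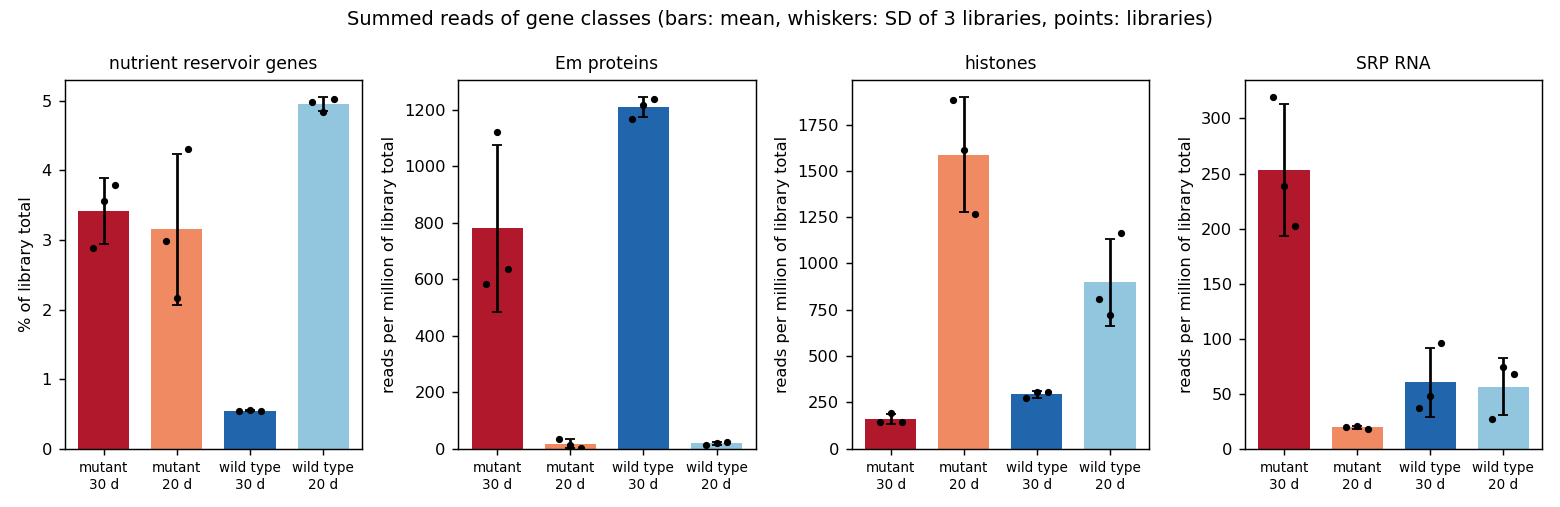
Summed reads of nutrient reservoir genes (% of the library total), Em proteins, histones and signal recognition particle (SRP) RNA (RPM, reads per M of the library total); bars are group means, whiskers SD of 3 libraries and points libraries. In the mutant, Em proteins and SRP RNA are higher at 30 than at 20 days and histones lower with no overlap, while nutrient reservoir genes overlap.

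Ribosomal protein genes, which make the protein part of ribosomes, rose under TMM. Of 156 members, 124 had reads in mutant grain and 105 passed the filter. Of these, 63 rose and 9 fell (median 0.60), but library totals alone gave 34 higher and 24 lower (median 0.05) and equal FPKM totals a median of -0.15. Their sum was 4730.2, 4259 and 4604 RPM at 30 days, against 4104, 3896 and 3448 at 20 days, so all 30-day libraries were above all 20-day libraries. The 40S protein S4 TraesCS1D02G101600 had 365, 328 and 356 FPKM at 30 days, against 286, 265 and 218.9 FPKM at 20 days (log2 fold change 0.99 ± 0.11, adjusted p = 4.9e-06), and the 60S protein L18a TraesCS1B02G427900 147, 136 and 156 FPKM at 30 days, against 92.6, 91.1 and 73.5 FPKM at 20 days (log2 fold change 1.31 ± 0.09, adjusted p = 1.3e-07). TraesCS1B02G432900, annotated as a ribosomal constituent, rose by 2.07 ± 0.13, and TraesCS1D02G003700, annotated likewise, had 1.08, 1.08 and 0.851 FPKM at 30 days, against 6.84, 7.08 and 6.89 FPKM at 20 days (log2 fold change -2.23 ± 0.21).

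Genes of protein degradation had smaller changes. Of 18 tested of 34 ubiquitin genes, 12 rose and 6 were not called (median 0.41), but library totals alone gave 2 higher and 4 lower (median -0.12). TraesCS1D02G161400, annotated with ubiquitin ligase activity, rose by 0.71 ± 0.12, but changed by 0.17 on library totals alone and by -0.01 with equal FPKM totals, not called under either. Of 12 proteasome genes, 11 were tested, with 2 rises and 5 falls, against 1 higher and 9 lower on library totals; without replicate 1 or 3 at 30 days 1 rise was left. TraesCS1B02G415200, annotated with proteasome assembly, had 5.38, 8.12 and 7.48 FPKM at 30 days, against 2.95, 3.40 and 2.76 FPKM at 20 days (log2 fold change 1.75 ± 0.16), and the alpha subunit TraesCS1B02G319100 3.35, 4.99 and 4.39 FPKM at 30 days, against 12.5, 14.1 and 11.03 FPKM at 20 days (log2 fold change -1.01 ± 0.14). Cysteine peptidases and cystatins, their inhibitors, had 11 of 43 members tested, 6 higher and 1 lower (median 0.47), against 1 higher and 3 lower on library totals. Cysteine proteinase inhibitor TraesCS1B02G322100 had 23.5, 28.3 and 17.3 FPKM at 30 days, against 42.6, 67.6 and 35.3 FPKM at 20 days (log2 fold change -0.51 ± 0.19, adjusted p = 0.035), a call lost without replicate 2 at 20 days and without replicate 1 or 3 at 30 days.

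Among the tested chlorophyll binding and photosystem genes, markers of the green pericarp, more fell than rose. Of 103 members, 37 had reads in mutant grain and 11 passed the filter. Of these, 7 fell and 2 rose (median -1.53), against 2 higher and 9 lower on library totals. Several falls, TraesCS1B02G432700 among them, stayed below 1 FPKM in every 30-day library and passed the filter through 20-day libraries alone. Such genes could hardly be called higher, so the counts depend in part on the filter. The rises were TraesCS1A02G191300 (log2 fold change 1.81) and TraesCS1B02G206200 (0.93). Chlorophyll a-b binding proteins, the light-harvesting antenna, summed to 0.681, 1.55 and 0.843 RPM at 30 days, against 4.20, 5.99 and 8.24 at 20 days. Chlorophyll a-b binding protein TraesCS1B02G432700 had 0.0932, 0.153 and 0.0630 FPKM at 30 days, against 1.29, 1.63 and 1.72 FPKM at 20 days (log2 fold change -3.27 ± 0.35, adjusted p = 4.5e-06), while TraesCS1A02G403300 had 0.708, 1.15 and 0.584 FPKM at 30 days, against 1.25, 1.98 and 3.15 FPKM at 20 days and was not called (adjusted p = 0.18). The 3 protochlorophyllide oxidoreductases, which make chlorophyll in the light, fell: TraesCS1B02G186300 by 2.63, TraesCS1A02G171000 by 2.62 and TraesCS1D02G168700 by 1.53.

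The labels single out antioxidant activity, so redox enzymes are given by family. Glutathione enzymes, which detoxify by conjugation or reduce peroxides, had 76 members, 51 with reads and 24 tested; 12 rose and 2 fell (median 0.49), against 4 higher and 7 lower on library totals (median -0.06). The TMM median was 0.76 without replicate 1 and 0.29 without replicate 3 at 20 days. In wild type 14 of these genes rose and 5 fell (median 1.06). The test of the difference called a higher change in the mutant for 2 and a lower change for 5, against 1 and 14 on library totals alone. TraesCS1A02G078800, with the glutathione transferase EC number, had 317, 262 and 270.1 FPKM at 30 days, against 40.9, 47.9 and 25.1 FPKM at 20 days (log2 fold change 3.45 ± 0.18, adjusted p = 1.1e-08), no overlap, and rose in wild type by 4.09. TraesCS1D02G081200, with the same EC number, had 105, 84.5 and 89.1 FPKM at 30 days, against 75.0, 93.7 and 46.5 FPKM at 20 days (log2 fold change 0.93 ± 0.16; 0.37 and not called on library totals alone, adjusted p = 0.11) and overlapped. TraesCS1A02G103000, also a transferase by EC number, had 2.83, 2.36 and 3.64 FPKM at 30 days, against 0, 0.0473 and 0 FPKM at 20 days, no more than traces at 20 days. Glutathione transferase TraesCS1D02G191100 fell, with 6.43, 5.68 and 6.19 FPKM at 30 days, against 17.9, 24.4 and 15.5 FPKM at 20 days (log2 fold change -1.11 ± 0.14, adjusted p = 1.7e-05).

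Thioredoxins and glutaredoxins, small proteins that reduce disulfides, were tested in 29 of 50 members. The list also holds disulfide isomerases, sulfhydryl oxidases and dihydrolipoyl dehydrogenases. Of the 29, 9 rose and 7 fell (median 0.12), against 5 higher and 18 lower on library totals (median -0.41). Over all genes tested, 29.9% rose and 27.9% fell. The TMM median was 0.022 without replicate 1 at 30 days, 0.025 without replicate 2 at 20 days, 0.039 without replicate 2 at 30 days, 0.049 without replicate 1 at 20 days, 0.052 without replicate 3 at 30 days and 0.21 without replicate 3 at 20 days. Thioredoxin H-type TraesCS1B02G338800, the most abundant, had 100.9, 100.1 and 95.4 FPKM at 30 days, against 114, 119 and 92.8 FPKM at 20 days (log2 fold change 0.41 ± 0.08, but -0.13 on library totals). TraesCS1A02G168900, annotated with redox homeostasis, rose by 1.196 ± 0.11 with no overlap between days. Dihydrolipoyl dehydrogenase TraesCS1B02G124900, a subunit of mitochondrial and plastid dehydrogenase complexes, fell to 0.814, 1.22 and 1.55 FPKM at 30 days, against 5.75, 5.64 and 5.45 FPKM at 20 days (log2 fold change -1.69 ± 0.23, adjusted p = 2.9e-05). Class III peroxidases, secreted enzymes that use hydrogen peroxide, had 14 of 124 members tested, 5 higher and 7 lower, against 5 higher and 8 lower on library totals. Peroxidase TraesCS1D02G079800 had 1.44, 0.954 and 1.39 FPKM at 30 days, against 7.38, 8.14 and 7.08 FPKM at 20 days (log2 fold change -2.03 ± 0.22, adjusted p = 4.1e-06). Of the rises, 3 in this list are MYBS3 transcription factors that share a gene ontology term with it. Superoxide dismutase, catalase and ascorbate peroxidase were not analysed here, since no gene matched their list.

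Flavonoid enzymes mostly fell. Of 36 members, 21 had reads in mutant grain and 9 passed the filter. Of these, 6 fell and 2 rose (median -1.07), against 1 higher and 7 lower on library totals. The rises were 1 without replicate 1 at 20 days or any single library at 30 days. TraesCS1A02G320000 and TraesCS1B02G332200, both with the flavonol synthase EC number, had 0.743, 0.485 and 0.788 FPKM at 30 days, against 17.4, 18.5 and 10.3 FPKM at 20 days (log2 fold change -3.95 ± 0.28, adjusted p = 9.9e-08) and 0.306, 0.477 and 0.534 FPKM at 30 days, against 8.77, 13.5 and 5.67 FPKM at 20 days (log2 fold change -3.83 ± 0.36). TraesCS1A02G221200, with the same EC number, fell by 3.11. TraesCS1A02G070200, with the EC number of anthocyanidin synthase, had 5.97, 5.42 and 3.50 FPKM at 30 days, against 13.5, 15.9 and 15.9 FPKM at 20 days (log2 fold change -1.07 ± 0.20). All 30-day libraries lay below all 20-day libraries in these 4. TraesCS1A02G036200, described as a chalcone-flavonone isomerase family protein, rose at low levels, with 1.14, 1.30 and 1.26 FPKM at 30 days, against 0.408, 0.147 and 0 FPKM at 20 days (log2 fold change 3.23 ± 0.78, adjusted p = 0.003). It passed the filter through 30-day libraries alone, and TraesCS1A02G221200 through the 20-day mutant libraries alone. Such genes could hardly be called the other way, so the counts depend in part on the filter.

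Phenylpropanoid and monolignol enzymes, which supply lignin and ferulic acid, had 8 of 50 members tested, 4 higher and 2 lower (median 0.49; 3 higher and 3 lower on library totals, median -0.05). Without replicate 3 at 20 days 1 fall was left, and without replicate 3 at 30 days the median was 0.30. Of all genes tested, 29.9% rose and 27.9% fell. Carotenoid and tocopherol enzymes had 8 of 13 tested, 2 higher and 2 lower (median -0.04), and 0 higher and 5 lower on library totals. Leaving out any 1 of the 6 mutant libraries gave a median between -0.12, without replicate 3 at 20 days, and -0.070, without replicate 1 at 30 days. Of the rises, 1 was left without replicate 3 at 20 days or replicate 2 at 30 days, and 0 without replicate 1 at 30 days. TraesCS1A02G223300, with the EC number of tocopherol cyclase, which closes the ring of vitamin E, had 8.18, 11.1 and 9.38 FPKM at 30 days, against 21.7, 24.5 and 20.7 FPKM at 20 days (log2 fold change -0.68 ± 0.11, adjusted p = 1.5e-04), with no overlap.

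Transcription factors moved in both directions, as did all genes tested, of which 29.9% rose and 27.9% fell. Of 225 with a DNA-binding factor annotation, 155 had reads and 86 passed the filter. Of these, 29 rose and 37 fell (median -0.13), against 21 higher and 48 lower on library totals. The median was 0.013 without replicate 2 or replicate 3 and -0.041 without replicate 1 at 20 days, and -0.070 without replicate 2 and -0.35 without replicate 3 at 30 days. The MYBS3 genes, MYB factors that in rice repress alpha-amylase under sugar starvation, rose on all 3 chromosomes: TraesCS1B02G232800 had 22.1, 18.3 and 22.9 FPKM at 30 days, against 11.1, 12.1 and 8.91 FPKM at 20 days (log2 fold change 1.52 ± 0.12, adjusted p = 2.4e-07), and TraesCS1D02G221000 and TraesCS1A02G219400 rose by 1.24 ± 0.14 and 1.09 ± 0.11. GBF1 TraesCS1A02G409800, a bZIP factor that binds G-box elements, rose by 1.17 ± 0.09. TraesCS1A02G219200, a DNA-binding factor by annotation, had 5.86, 7.68 and 8.31 FPKM at 30 days, against 3.77, 3.72 and 1.48 FPKM at 20 days (log2 fold change 1.84 ± 0.26). TraesCS1D02G072600, likewise, had 4.95, 4.93 and 4.35 FPKM at 30 days, against 0.814, 0.9505 and 0.966 FPKM at 20 days (log2 fold change 2.92 ± 0.19, adjusted p = 6.5e-08). The MADS-box factors TraesCS1A02G264300 and TraesCS1B02G273300, of a family best known from flower and seed development, fell: the first had 0.661, 0.608 and 0.785 FPKM at 30 days, against 8.77, 10.9 and 8.75 FPKM at 20 days (log2 fold change -3.24 ± 0.19, adjusted p = 2.6e-08) and the second changed by -2.14 ± 0.23. Transcriptional activator TraesCS1B02G343500 had 2.46, 2.89 and 1.93 FPKM at 30 days, against 8.69, 11.9 and 19.9 FPKM at 20 days (log2 fold change -1.96 ± 0.30).

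Auxin genes fell more often than they rose. Of 35 synthesis and response genes, 24 were tested, with 6 rises and 12 falls (median -0.46), against 4 higher and 15 lower on library totals. Without replicate 2 at 20 days the median was -0.29. Tryptophan aminotransferase related TraesCS1D02G114800, which starts auxin synthesis from tryptophan, had 0.507, 0.562 and 0.373 FPKM at 30 days, against 2.30, 4.33 and 6.13 FPKM at 20 days (log2 fold change -2.61 ± 0.37, adjusted p = 4.6e-05). Auxin response factor TraesCS1D02G337400 had 0.137, 0.343 and 0.0674 FPKM at 30 days, against 2.47, 2.28 and 2.22 FPKM at 20 days (log2 fold change -3.11 ± 0.41), and Auxin-responsive protein TraesCS1A02G118400, 6.88, 6.07 and 4.41 FPKM at 30 days, against 11.7, 16.7 and 11.5 FPKM at 20 days (log2 fold change -0.65 ± 0.14). Auxin-responsive protein TraesCS1A02G122600 was at 0 in all 30-day libraries, against 1.97, 1.61 and 1.28 FPKM at 20 days, at least 41.5-fold lower against a floor of 3 counts per library.

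The abscisic acid, gibberellin and ethylene list had 33 of 41 members tested, 9 higher and 13 lower (median -0.23), against 9 higher and 21 lower on library totals. Its changes ran from -4.17 to 2.46, so the rises named next do not stand for the list. It also holds vacuolar proton pump genes, a Poly [ADP-ribose] polymerase and a 6-phosphogluconate dehydrogenase through shared ontology terms. Of all genes tested, 29.9% rose and 27.9% fell. TraesCS1A02G093000 and TraesCS1D02G101700, annotated with the response to abscisic acid and salt, had 76.1, 69.4 and 62.5 FPKM at 30 days, against 21.6, 23.3 and 10.6 FPKM at 20 days (log2 fold change 2.46 ± 0.19, adjusted p = 2.8e-07) and 72.2, 73.2 and 58.5 FPKM at 30 days, against 24.5, 22.4 and 9.95 FPKM at 20 days (log2 fold change 2.40 ± 0.22). TraesCS1D02G163800, also annotated with the response to abscisic acid, had 70.3, 70.9 and 70.9 FPKM at 30 days, against 35.9, 31.7 and 13.9 FPKM at 20 days (log2 fold change 1.94 ± 0.23, adjusted p = 1.1e-05). In these 3 the days did not overlap, and the direction held on library totals. Ethylene-responsive factor TraesCS1D02G314800 fell, with 2.15, 2.62 and 2.95 FPKM at 30 days, against 4.62, 6.599 and 6.47 FPKM at 20 days (log2 fold change -0.66 ± 0.17).

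Of 238 membrane transporters, 191 had reads and 92 were tested, with 37 rises and 27 falls (median 0.23), but 19 higher and 40 lower on library totals (median -0.32). Without replicate 3 at 20 days the TMM median was 0.10. Over all genes tested, 29.9% rose and 27.9% fell. TraesCS1A02G107200, a pyrophosphate-driven proton pump by annotation, had 17.1, 16.03 and 17.3 FPKM at 30 days, against 47.2, 62.6 and 90.1 FPKM at 20 days (log2 fold change -1.47 ± 0.20, adjusted p = 4.2e-05). Zinc transporter-annotated TraesCS1B02G306500 had 6.998, 4.55 and 4.99 FPKM at 30 days, against 1.11, 0.750 and 0.531 FPKM at 20 days (log2 fold change 3.32 ± 0.25, adjusted p = 2.2e-07). Neither overlapped between days.

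RNA genes of the SRP (signal recognition particle), which brings ribosomes making secreted proteins to the endoplasmic reticulum, rose as a block. Of 91 members, 53 had reads in mutant grain and 33 passed the filter. Of these, 32 rose and 1, ENSRNA050017177, was not called (median 4.23); library totals alone gave 32 higher and 0 lower. Of all genes tested, 29.9% were called higher. Their sum was 319, 238 and 202 RPM at 30 days, against 19.4, 20.97 and 17.6 at 20 days. In wild type it was 37.3, 47.5 and 95.7 at 30 days and 27.02, 74.4 and 67.8 at 20 days, where edgeR called 0 of 33, with 1 at an unadjusted p under 0.05, 1 by DESeq2 and 1 by limma, but 10 with equal FPKM totals. The tested genes lie mostly on 7A, 7D and 4A.

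ENSRNA050015611 (chr7A:7942868-7943171) had 15.6, 15.3 and 15.7 FPKM at 30 days, against 0.264, 0.0899 and 0 FPKM at 20 days (log2 fold change 7.36 ± 0.85, adjusted p = 8.0e-06). ENSRNA050015609 (chr7A:8082983-8083286) had 75.7, 73.2 and 56.4 FPKM at 30 days, against 1.63, 1.84 and 1.11 FPKM at 20 days (log2 fold change 5.99 ± 0.29, adjusted p = 7.2e-09). ENSRNA050015610 (chr7A:8203249-8203552) had 30.9, 28.3 and 22.2 FPKM at 30 days, against 1.01, 0.827 and 0.710 FPKM at 20 days (log2 fold change 5.49 ± 0.39). These 3 stand close to each other near the start of 7A. On 7D, ENSRNA050021165 (chr7D:7195119-7195422) and ENSRNA050021162 (chr7D:7188097-7188400) rose by 4.86 ± 0.32 and 4.78 ± 0.35. ENSRNA050019668 on 7B had 105, 114 and 97.2 FPKM at 30 days, against 5.29, 4.06 and 5.16 FPKM at 20 days (log2 fold change 4.97 ± 0.56), and ENSRNA050021664 on 3D 82.9, 61.1 and 56.3 FPKM at 30 days, against 3.07, 2.16 and 2.18 FPKM at 20 days (log2 fold change 5.27 ± 0.23). None of the 7 overlapped between days. SRP copies are near-identical, so the split between them is uncertain, and how the library kit treats RNA without a poly(A) tail is not given in the sources used here.

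In other structural RNA classes the share called was below that of all genes. Of 348 ribosomal RNA genes tested of 8082, 35 rose and 5 fell (median 0.55; 7 higher and 13 lower on library totals), and their sum was 533, 420.3 and 377 RPM at 30 days, against 410.2, 428 and 455 at 20 days, with overlap. Without replicate 1 at 30 days there were 16 rises and 9 falls (median 0.37), without replicate 2 at 30 days 22 rises, without replicate 2 at 20 days 20 rises and without replicate 1 at 20 days 3 falls. ENSRNA050016249, a ribosomal RNA gene, had 26.03, 23.2 and 19.3 FPKM at 30 days, against 15.2, 13.4 and 16.6 FPKM at 20 days (log2 fold change 1.13 ± 0.41, adjusted p = 0.031), a call lost without replicate 1 or 2 of either day and on library totals alone (0.60, adjusted p = 0.23). Small nucleolar RNAs, guides for the modification of ribosomal RNA, had 224 of 1214 tested, 25 higher and 5 lower (median 0.26), and 9 higher and 11 lower on library totals (median -0.29). The TMM median was 0.41 without replicate 1 at 20 days, and 0.057 without replicate 1 and 0.13 without replicate 3 at 30 days. The rises numbered 14, 15 and 16 without replicate 2 or 3 at 20 days or replicate 3 at 30 days, and the falls ran from 1 without replicate 3 at 20 days to 10 without replicate 1 at 30 days. Spliceosomal RNAs had 36 of 1119 tested, 5 higher and 31 not called, against 1 higher and 1 lower on library totals, with 2 rises without replicate 2 at 20 days or replicate 3 at 30 days and 3 without replicate 3 at 20 days or replicate 1 at 30 days. Medians of lists with genes at 0 on one day were the same with those genes set at their bound.

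In wild type over the same days 1819 genes were called higher (31.8%) and 1826 lower (31.9%), 63.7% in all. Of the mutant's rises, 74.7% (1278 genes) were also called higher in wild type, which is 70.3% of the wild-type rises; of its falls, 76.1% (1216 genes) were also called lower, 66.6% of the wild-type falls. The change itself differed between the lines for 1373 genes (24.0%), 751 with the mutant's change the higher (13.1%) and 622 with it the lower (10.9%). On library totals alone these were 361 and 2994, and with equal FPKM totals 196 and 4468. Fewer positive and more negative differences were thus called than with TMM, so differences of modest size depend on the scaling. Opposite calls were found for 155 genes, 121 higher in the mutant and lower in wild type and 34 the reverse. The test of the difference called all 155, which opposite calls in the same fit make nearly certain, so it adds no support.

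All 21 tested genes of the seed storage list, Storage protein activator included, differed from wild type, each with a higher change in the mutant. Their median log2 fold change was 0.48 in the mutant and -3.46 in wild type, where 21 fell; on library totals alone 19 differed, all with the higher change in the mutant, and with equal FPKM totals 19 had a higher and 2 a lower change. Gamma-gliadin 2 changed by 0.93 in the mutant and by -3.45 in wild type (difference of the changes 4.38 ± 0.37, adjusted p = 2.4e-06); wild-type means were 1563 FPKM at 30 days and 14486 FPKM at 20 days. Gamma-gliadin B had the largest difference of the list (difference of the changes 5.98 ± 0.56, adjusted p = 5.7e-06). For Storage protein activator the difference was 2.98, with a fall in both lines. Of 28 inhibitors and thionins, 17 had a higher and 0 a lower change in the mutant, against 13 and 3 on library totals alone and 10 and 9 with equal FPKM totals. Among the 17 were TraesCS1B02G043800, with 55.0, 57.7 and 52.2 FPKM at 30 days, against 19.9, 14.9 and 10.9 FPKM at 20 days, and a wild-type change of -2.17, and Type V Thionin (difference of the changes 3.76 ± 0.34, adjusted p = 3.8e-06).

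SWEET transporter TraesCS1A02G050400 rose in the mutant by 3.87 and changed by -3.73 in wild type (difference of the changes 7.60 ± 0.54, adjusted p = 1.1e-06). TraesCS1B02G276000, another SWEET gene, had the opposite difference (difference of the changes -2.58 ± 0.53, adjusted p = 0.0033), with a wild-type rise of 3.44. The proton pump TraesCS1A02G107200 fell less than in wild type (difference of the changes 3.34 ± 0.29, adjusted p = 3.1e-06), as did starch synthase TraesCS1D02G100100 (difference 1.97) and the auxin synthesis gene TraesCS1D02G114800 (difference 3.26). Of 85 histones, 25 fell more in the mutant, and 66 on library totals alone; the count was 15 without replicate 1 at 20 days, 16 without replicate 1 at 30 days and 45 without replicate 2 at 30 days. Histone H3.2 TraesCS1D02G274300 differed by -2.62. Of 105 ribosomal proteins, 58 had a lower change in the mutant (96 on library totals), and 80 rose in wild type. Of 9 flavonoid genes, 3 had a higher and 2 a lower change in the mutant, against 2 and 5 on library totals alone. Flavonol synthase-annotated TraesCS1A02G320000 fell more in the mutant (difference of the changes -2.09 ± 0.36, adjusted p = 9.8e-04). Anthocyanidin synthase-annotated TraesCS1A02G070200 fell less (difference of the changes 1.66 ± 0.28, adjusted p = 0.001). Of 33 SRP RNA genes, 29 had a higher change in the mutant, and 21 with equal FPKM totals.

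**Figure D5:**
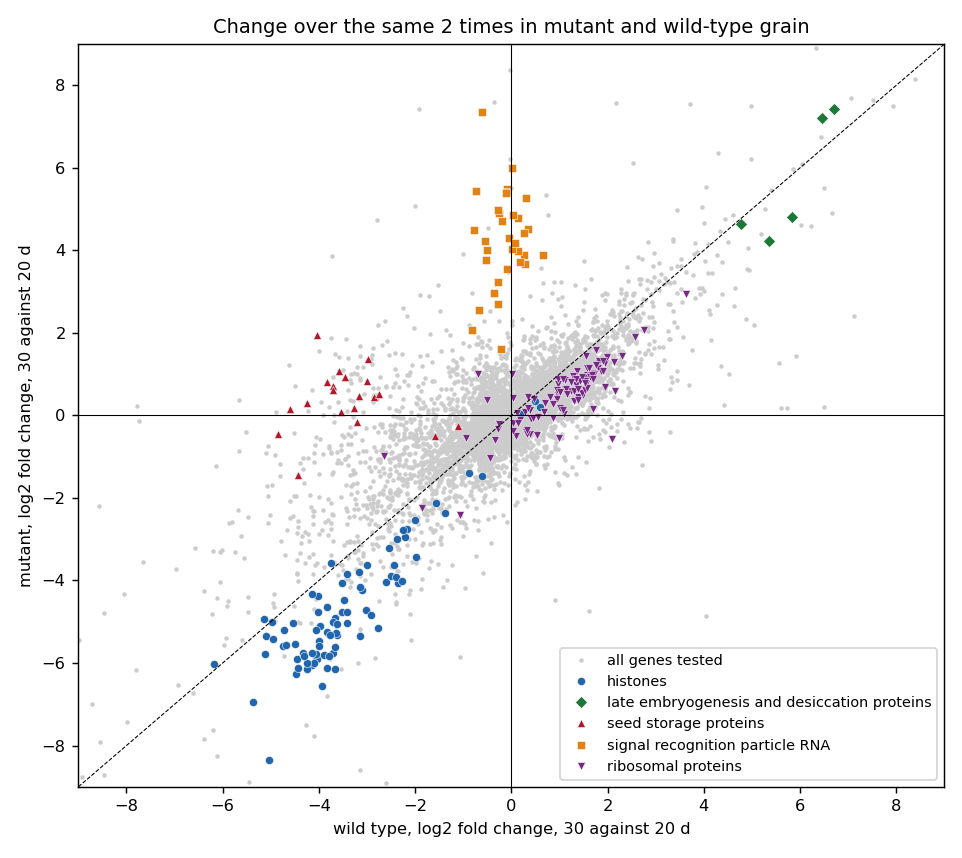
Log2 fold change at 30 against 20 days in mutant (vertical axis) and wild type (horizontal axis) for 5680 of 5723 genes tested; 43 lie outside the axes, which end at 9, and fold changes of genes at 0 in a group are fitted values, not bounds. Em genes lie near the diagonal at the upper right and histones near or below it at the lower left. Storage proteins lie left of the centre and SRP RNA above it. Ribosomal proteins lie mostly below the diagonal. Of these 105, 58 had a lower change called with TMM, 96 on library totals alone and 100 with equal FPKM totals.

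Of the called genes, 2629 have no functional description, and some of the largest changes are among them. TraesCS1A02G434600, without annotation, had 23.8, 49.6 and 36.8 FPKM at 30 days and 0 at 20 days, at least 560.1-fold higher against a floor of 3 counts per library; it was at 0 in all wild-type libraries. TraesCS1A02G334800, a heme-binding monooxygenase by annotation, had 4.78, 9.497 and 7.23 FPKM at 30 days and 0 at 20 days, at least 292-fold higher, and was likewise at 0 in wild type. Both genes passed the filter through the 30-day mutant libraries alone and could hardly be called lower. TraesCS1A02G062900 was at 0 at 30 days and had 120.5, 169.6 and 147 FPKM at 20 days, at least 1335-fold lower; wild type had 0 at 30 days and a mean of 90.1 FPKM at 20 days. In all, 14 called genes were at 0 in every 20-day mutant library and 32 in every 30-day mutant library.

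TraesCS1D02G268200 fell to 0.427, 0.230 and 0 FPKM at 30 days, against 134, 142 and 158 FPKM at 20 days (log2 fold change -8.70 ± 0.35, adjusted p = 2.4e-09), and by a like amount in wild type (-8.48). TraesCS1A02G392200, annotated with sequence-specific DNA binding and the response to karrikin, had 247, 184 and 186 FPKM at 30 days, against 21.4, 19.4 and 10.3 FPKM at 20 days (log2 fold change 4.14 ± 0.21, adjusted p = 8.7e-09). TraesCS1D02G037300, without annotation, had 21.2, 27.98 and 33.0 FPKM at 30 days, against 0.893, 1.75 and 1.69 FPKM at 20 days (log2 fold change 4.73 ± 0.38, adjusted p = 3.2e-07) and changed by -2.79 in wild type (difference of the changes 7.53 ± 0.55, adjusted p = 1.1e-06). TraesCS1A02G284900, an O-glycosyl hydrolase by annotation, had 28.4, 29.1 and 27.8 FPKM at 30 days, against 2.48, 2.62 and 3.10 FPKM at 20 days (log2 fold change 3.91 ± 0.15, adjusted p = 2.4e-09), with a wild-type change of -1.02 (difference of the changes 4.93 ± 0.20, adjusted p = 1.5e-08). The genes without a description were chosen after their values were seen. By chromosome there were 611 rises and 621 falls of 1908 tested on 1A, 504 and 490 of 1619 on 1B, and 494 and 476 of 1544 on 1D; library totals alone gave 278 higher and 1028 lower on 1A, 233 higher and 840 lower on 1B and 207 higher and 815 lower on 1D.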

How the data were processed

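Gene read counts and FPKM of 12 libraries were used as the authors deposited them. Reads had been handled with cutadapt 1.9 and FastQC, per the submitters' processing notes; aligner, counter, strand use and genome build are not given in the labels or files used, so antisense overlaps and near-identical copies are uncertain. The deposited FPKM hold 0.0001 where the deposited count is 0, read here as 0. The table has 25269 genes; 1 incomplete last line was left out. Library totals were recovered from count to FPKM ratios of 43 genes with at least 100 counts. Genes with at least 1 FPKM in 3 libraries (5723) entered edgeR 4.0.16 (R 4.3.3): quasi-likelihood fit of 4 group means, TMM on library totals, Benjamini-Hochberg adjusted p under 0.05. Mutant change minus wild-type change was tested in the same fit. DESeq2 1.42.0, limma 3.58.1 and other scalings and filters were alternatives. Scripts were tested on simulated data. The members, which are set by labels, and the gene lists were chosen with earlier results of these data known. Named genes were the 10 largest rises and falls with a description and the largest of each list, among genes called, not overlapping between days and with a mean of 5 FPKM in the higher group. In addition, overlap or not, they were the 5 analysed coding genes highest in FPKM and the 5 largest called differences from wild type each way with a description and a mean of 5 FPKM in a group. Others are named by role or were chosen after their values were seen. Gene functions come from the deposited descriptions, ontology terms and EC numbers.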

Additional observations from a re-analysis of the deposited data

Results flagged for a closer look

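Of the 64 genes named by rule, 39 changed differently between mutant and wild type from 20 to 30 days. They were called by edgeR's test of the difference of the 2 changes at a Benjamini-Hochberg adjusted p under 0.05. Over all 5723 genes tested, this test called 1373 (24.0%). Some of the 64 were named because this same test called them, so the 39 cannot be set against that share. In 20 of the 39 the change was higher in the mutant and in 19 lower. Values in brackets are that difference, mutant minus wild type, on the log2 scale, with 3 libraries a group. These genes were chosen for their change in the mutant, for their abundance or for this difference, so the list is a description, and no cause was tested. On library totals alone 37 of the 39 kept their sign and call, and with equal FPKM totals 35.

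Genes of the seed storage list had the higher change in the mutant: TraesCS1B02G011000 (5.98), TraesCS1D02G001200 (4.38) and TraesCS1D02G332200 (2.98). They are described as Gamma-gliadin B, Gamma-gliadin 2 and Storage protein activator, the last a transcription factor. Among the analysed coding RNAs highest in FPKM, so did TraesCS1D02G015100 (4.38), TraesCS1D02G000200 (4.58), TraesCS1D02G000300 (4.32) and TraesCS1A02G398200 (3.35). Gamma-gliadin 2 changed by 0.93 in the mutant and by -3.45 in wild type, and TraesCS1A02G398200 by 0.49 and -2.86. Signal recognition particle RNA also had the higher change: ENSRNA050015611 (7.97), ENSRNA050015609 (5.98), ENSRNA050015610 (5.59), ENSRNA050021664 (4.97), ENSRNA050019668 (5.24), ENSRNA050021165 (4.83) and ENSRNA050021162 (4.64).

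Sugar and starch genes differed both ways: the SWEET transporters TraesCS1A02G050400 (7.60) and TraesCS1B02G276000 (-2.58), starch synthase-annotated TraesCS1D02G100100 (1.97, but 0.22 and not called with equal FPKM totals), 6-phosphofructokinase TraesCS1A02G344000 (-0.62) and the proton pump TraesCS1A02G107200 (3.34). SWEET TraesCS1A02G050400 changed by 3.87 in the mutant and by -3.73 in wild type.

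Cell division genes had the lower change in the mutant: the histones TraesCS1D02G274300 (-2.62), TraesCS1A02G291500 (-2.47), TraesCS1A02G229100 (-2.38), TraesCS1B02G049100 (-2.30), TraesCS1A02G287800 (-1.91) and TraesCS1D02G286700 (-1.68), DNA helicase TraesCS1B02G274600 (-0.96) and single-stranded DNA-binding TraesCS1B02G341000 (-0.77). For Histone H4 variant TH011 TraesCS1D02G081600 the fitted value (-7.10) is no bound, since it was at 0 in all mutant libraries at 30 days. The chitin-binding TraesCS1B02G340200 (-1.68), flavonol synthase-annotated TraesCS1A02G320000 (-2.09), Dihydrolipoyl dehydrogenase TraesCS1B02G124900 (-1.33), ribosome-annotated TraesCS1B02G432900 (-0.69) and Proteasome subunit alpha TraesCS1B02G319100 (-0.63) also had the lower change, as did the transcription factors TraesCS1A02G219200 (-1.44), TraesCS1A02G264300 (-0.90) and TraesCS1B02G232800 (-0.49).

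Differences that turned with the scaling were those of Wali3 TraesCS1D02G265900 (0.95; 0.17 and not called on library totals, -0.84 with equal FPKM totals), the chaperone-annotated TraesCS1A02G295600 (0.47; -0.31 on library totals, -1.32 with equal FPKM totals) and the proteasome assembly gene TraesCS1B02G415200 (1.37; -0.44 with equal FPKM totals).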

How the results depend on the processing

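The direction of small changes rests on the scaling. Of settings for the whole comparison, library totals alone, equal FPKM totals, limma on log2(FPKM + 1) and limma on log2(FPKM + 0.1) called 772, 515, 826 and 811 genes higher and 2708, 2955, 2776 and 2760 lower in the mutant, against 1711 and 1597. For the difference from wild type they called 3355, 4664, 3488 and 3375 genes, of which 361, 196, 347 and 357 were higher and 2994, 4468, 3141 and 3018 lower, against 751 and 622. A filter of 5 FPKM left 1903 calls, 947 higher and 956 lower, and 495 higher differences, as fewer genes were tested. DESeq2 gave 1607 higher and 1742 lower, no filter 1730 and 1810 and the mutant libraries alone 1462 and 1522. Leaving out single mutant libraries gave 2969 to 3095 calls, 1437 to 1583 higher and 1447 to 1608 lower, and 1106 to 1520 differences, 642 to 807 higher and 464 to 713 lower. The nutrient reservoir difference ran from -0.24, without replicate 2 at 20 days, to 0.84 percentage points.

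List medians that turned negative are given in the order library totals, equal FPKM totals, limma with 1 and limma with 0.1: seed storage -0.032, -0.18, -0.013 and -0.013; chaperones -0.045, -0.24, -0.039 and -0.042; ubiquitin -0.12, -0.32, -0.10 and -0.11; thioredoxins -0.41, -0.58, -0.38 and -0.39; monolignol enzymes -0.048, -0.24, -0.019 and -0.050; transporters -0.32, -0.51, -0.23 and -0.29; cysteine peptidases -0.078, -0.28, -0.064 and -0.067; small nucleolar RNA -0.29, -0.48, -0.14 and -0.27. Glutathione enzymes reached -0.057, -0.26 and -0.0050 under the first 3 of these settings. With equal FPKM totals ribosomal proteins and ribosomal RNA each reached -0.15. A filter of 5 FPKM gave -1.91 for sucrose and starch breakdown, -0.13 for cysteine peptidases, -0.26 for small nucleolar RNA, 0.96 for peroxidases, 0.071 for auxin genes and 0.059 for transcription factors. Leaving out single libraries, the transcription factor median ran from -0.35, without replicate 3 at 30 days, to 0.013, without replicate 2 or 3 at 20 days. Of single genes, TraesCS1A02G085000, TraesCS1A02G219400, TraesCS1D02G221000, TraesCS1A02G344000, TraesCS1D02G101600 and TraesCS1D02G328900 were not called with equal FPKM totals, and TraesCS1D02G015100 not with the mutant libraries alone; TraesCS1D02G161400 turned to -0.014 with equal FPKM totals, and TraesCS1A02G398200 to -0.025, -0.18, -0.010 and -0.010 in the order above. Beyond the shift between scalings, the cause was not tested.

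Replicate numbers gave no sign of pairing. Same-numbered libraries of the days had correlations of deviations of -0.03, -0.02 and 0.04, and not every library correlated best with its own number. With 3 libraries a day such weak correlations cannot exclude a pairing. A fit with the replicate number as a block called 1672 genes higher and 1559 lower in the mutant, and 734 higher and 560 lower differences.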
